A study of Mus musculus with 12 samples.

Results

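Genes of the nuclear pore complex and the nuclear lamina were examined in mouse oocytes with and without Lsm14b, a gene for an RNA-binding protein of cytoplasmic ribonucleoprotein granules. The genes were chosen by symbol: every symbol that starts with Nup and a digit (21 genes), and 15 genes taken by name, namely Pom121, Ndc1, Aaas, Rae1, Seh1l, Sec13, Tpr, Lmna, Lmnb1, Lmnb2, Lbr, Banf1, Emd, Sun1 and Sun2. All 36 were among the 22801 genes of the metaphase II (MII) table, and 4 of them were among the 3475 genes of the germinal vesicle (GV) table. The GV table lists selected genes, those past 2-fold at an unadjusted p under 0.05, so a gene that is absent from it was not selected there, and its GV level is not known from these values.

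RNA came from tubes of 15 oocytes taken from the ovaries of C57BL/6 females on postnatal day 35. Conditional knockout oocytes (CKO) were homozygous for a floxed Lsm14b allele and carried Gdf9-Cre, a recombinase driven by the promoter of an oocyte growth factor and active in oocytes from early follicle stages on. Control oocytes (WT) carried the same floxed alleles without Cre. Each genotype was sampled at GV, when the oocyte is arrested with an intact nucleus, and at MII, when the egg is mature, and every group had 3 libraries, which the submitters call biological replicates. Whether replicates came from separate animals is not given in the sources used here, and p-values measure the spread between these libraries.

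The nuclear pore complex is the channel through which RNA and protein cross the nuclear envelope. It is built from an outer ring (the Y complex) on both faces, an inner ring, membrane anchors, a central channel of phenylalanine-glycine repeat proteins, cytoplasmic filaments and a nuclear basket. The lamina is a mesh of lamin filaments under the inner nuclear membrane, to which membrane proteins such as the lamin B receptor, emerin and the SUN proteins attach. The oocyte nucleus, the germinal vesicle, breaks down at the start of meiotic maturation, and the egg later rebuilds envelopes around the parental pronuclei from maternal stores.

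Lsm14b itself had 1436 ± 164 normalized reads in CKO and 22931 ± 6257 in WT at GV, and 908 ± 80.9 in CKO and 11051 ± 524 in WT at MII (SD, n = 3 each). The reads behind the MII values numbered 23077585 to 40530314 in the CKO libraries and 88494525 to 124872889 in the WT libraries, so depth and genotype cannot be told apart at MII. WT replicate 3 stood apart at MII: its Spearman correlations across genes with the other 5 libraries were 0.847 to 0.877, while those among the other 5 were 0.899 to 0.940. At MII all 12 oocyte markers on the list examined were detected, with summed levels of 794392 to 906519 normalized reads in CKO and 622547 to 748471 in WT, which do not overlap. Of them limma called Nobox, higher in CKO. Zp2, Zp3 and Nlrp5 were also higher in CKO without overlap, and Bmp15 was lower without overlap (means of 62632 in CKO and 132010 in WT). Gdf9, Mos, Oosp1 and Dppa3 also had lower means in CKO, with overlap, so the markers did not move as 1 group. The 3 blood and immune markers measured summed to 194 to 215 in CKO and 1118 to 1925 in WT, most of it C1qb, which limma called lower. The 10 cumulus and granulosa markers that were measured summed to 3213 to 4365 in CKO and 2633 to 5212 in WT. Amh, a defining granulosa gene, averaged 0 in CKO and 9.57 in WT, with overlap. Its WT mean rests on 48 reads in WT replicate 2, and WT replicates 1 and 3 had none. Fshr, Inhba, Ptgs2 and Nr5a2 of that list were higher in CKO without overlap, as were 10.4% of all tested genes. Their means were 115, 24.5, 72.8 and 2545.5 in CKO and 13.0, 1.96, 2.55 and 1701 in WT. No value of Fshr, Inhba or Ptgs2 rested on over 121 reads. Limma called none of the 10. None of the 14 granulosa markers was in the GV table. Of 10 theca, stroma and endothelium markers 3 were, summing to 3.41, 0 and 0 in CKO and 469, 259 and 186 in WT. Kdr and Col1a2 were at 0 in every CKO library. Genes enter that table only by differing, so the GV levels of the other markers of this class are not known. At MII the 6 measured markers of this class summed to 3799 to 4381 in CKO and 3065 to 4392 in WT, with overlap. Most of it was Pecam1 (means of 3989 and 3441), while Kdr was lower in CKO without overlap (21.6 and 139). The 2 of 6 blood and immune markers in the GV table went opposite ways, with means of 807 in CKO and 1869 in WT for C1qb and of 270 in CKO and 94.7 in WT for Cd68. Of the oocyte markers Nobox alone was in the GV table, at 233858 in CKO and 78180 in WT. The 3 of 7 sperm and early embryo markers there summed to 646 to 1145 in CKO and 251 to 724 in WT. Most of that was Zscan4c (means of 765 in CKO and 352 in WT, with overlap). Acrv1 was also higher in CKO (82.3 and 25.8), while Cdx2 averaged 0 in CKO and 51.2 in WT, with overlap. The part of these values in the differences below was not tested, and in bulk samples fewer cells of a type and less RNA per cell cannot be told apart.

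Short sequences at the ends of the 3′ untranslated regions are shown first, because elements there act on stored messages in oocytes. UUUUAU and UUUUAAU are the letters of the cytoplasmic polyadenylation element, which is bound by CPEB1. The last 100 bases of 1 annotated transcript per gene (GENCODE M21, GRCm38) were searched on the transcript strand, and 32 of the 36 genes had a 3′ untranslated region of that length. UUUUAU was found in 7 of these 32 (21.9%), against 14.6% of 13748 such windows over all measured genes, and UUUUAAU in 1 (Lbr), against 5.41%. The other 6 with UUUUAU beside Nup37 were Nup35, Nup54, Nup62, Nup88, Nup98 and Rae1. UGUANAUA, the Pumilio site, was in none of the 32 windows and in 4.76% of all. Among the 4 genes selected at GV, Nup37 held UUUUAU, and Pom121, Lmnb2 and Seh1l held neither UUUUAU nor UUUUAAU in this window. The sites of Nup37, Nup62 and Nup88 are printed, as these are the genes of this kind whose values are given in full below, with UUUUAU in capitals. They lie in 3′ untranslated exon sequence at chr10:88178300-88178329 (plus strand), chr7:44830713-44830742 (plus strand) and chr11:70943082-70943111 (minus strand).
Nup37: aaaaauccuuauUUUUAUaucaaacauacu
Nup62: ucaugucuaUUUUAUuucucugcacucuau
Nup88: uucaaauaaaguuugaauaaauUUUUAUuc
In Nup88 the element started 8 bases before the annotated transcript end, and in Nup37 and Nup62 it started 77 and 91 bases before it. A match is a description of the annotated sequence, and the transcript ends used in these oocytes were not measured here.

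At GV, the first question was which pore and lamina genes differed between oocytes lacking Lsm14b and controls. Pom121 and Seh1l were lower in CKO, and Lmnb2 and Nup37 were higher. These 4 of 36 genes (11.1%) met an adjusted p under 0.05 with over 2-fold in the authors' deposited table, where 12.9% of the 21462 genes behind its adjusted p-values did (4.96% higher and 7.89% lower in CKO). The share was thus near that of all genes. The other 32 genes, among them every inner ring, central channel, cytoplasmic face and nuclear basket gene examined, were not selected. That does not show that their levels were equal.

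Pom121 encodes a transmembrane nucleoporin that anchors the pore to the envelope. It had 23805, 21561 and 19699 normalized reads in CKO replicates 1, 2 and 4, against 58976, 49290 and 75939 in WT replicates 1, 2 and 4. Every CKO library lay under every WT library, and the CKO mean was 35.3% of the WT mean. The authors' deposited table gave a log2 fold change of -1.50 (SE 0.18, adjusted p = 2.53e-15). Exons of Pom121 overlap those of Nsun5 on the opposite strand over 665 bases (GRCm38, chromosome 5). As the strand setting of the counting is not given in the sources used here, reads of the pair cannot be told apart there. Nsun5 was not selected at GV, so its GV level is not known. At MII it had 169 ± 128 normalized reads in CKO and 297 ± 201 in WT (SD, n = 3 each), counted with the same unknown strand setting. Its part in the values of Pom121 was not tested.

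Seh1l, a member of the Y complex that also serves in amino acid signalling to the lysosome, had 2402, 1816 and 2714 normalized reads in CKO and 5839, 6232 and 4318 in WT at GV. The groups did not overlap, with a CKO mean of 42.3% of the WT mean. In the authors' deposited table its log2 fold change was -1.24 (SE 0.22, adjusted p = 3.30e-07).

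Lmnb2, 1 of the 2 genes for B-type lamins, had 2496, 1852 and 2848 normalized reads in CKO at GV, against 1004, 1079 and 877 in WT. All CKO libraries were above all WT libraries, and the CKO mean was 243% of the WT mean. The log2 fold change in the authors' deposited table was 1.28 (SE 0.23, adjusted p = 3.77e-07). Neither of the other lamin genes, Lmna and Lmnb1, was selected at GV.

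Nup37 is a small WD-repeat protein of the Y complex. Its GV values were 5842, 6885 and 5721 normalized reads in CKO and 2680, 4083 and 2342 in WT. The libraries of the genotypes did not overlap, although WT replicate 2 lay nearer to the CKO libraries than the other WT libraries did. The authors' deposited table gave a log2 fold change of 1.02 (SE 0.23, adjusted p = 1.06e-04), just over the 2-fold bound of the selection. Of the 8 Y complex genes examined, Nup37 was thus higher and Seh1l lower at GV, and 6 were not selected.

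**Figure D1:**
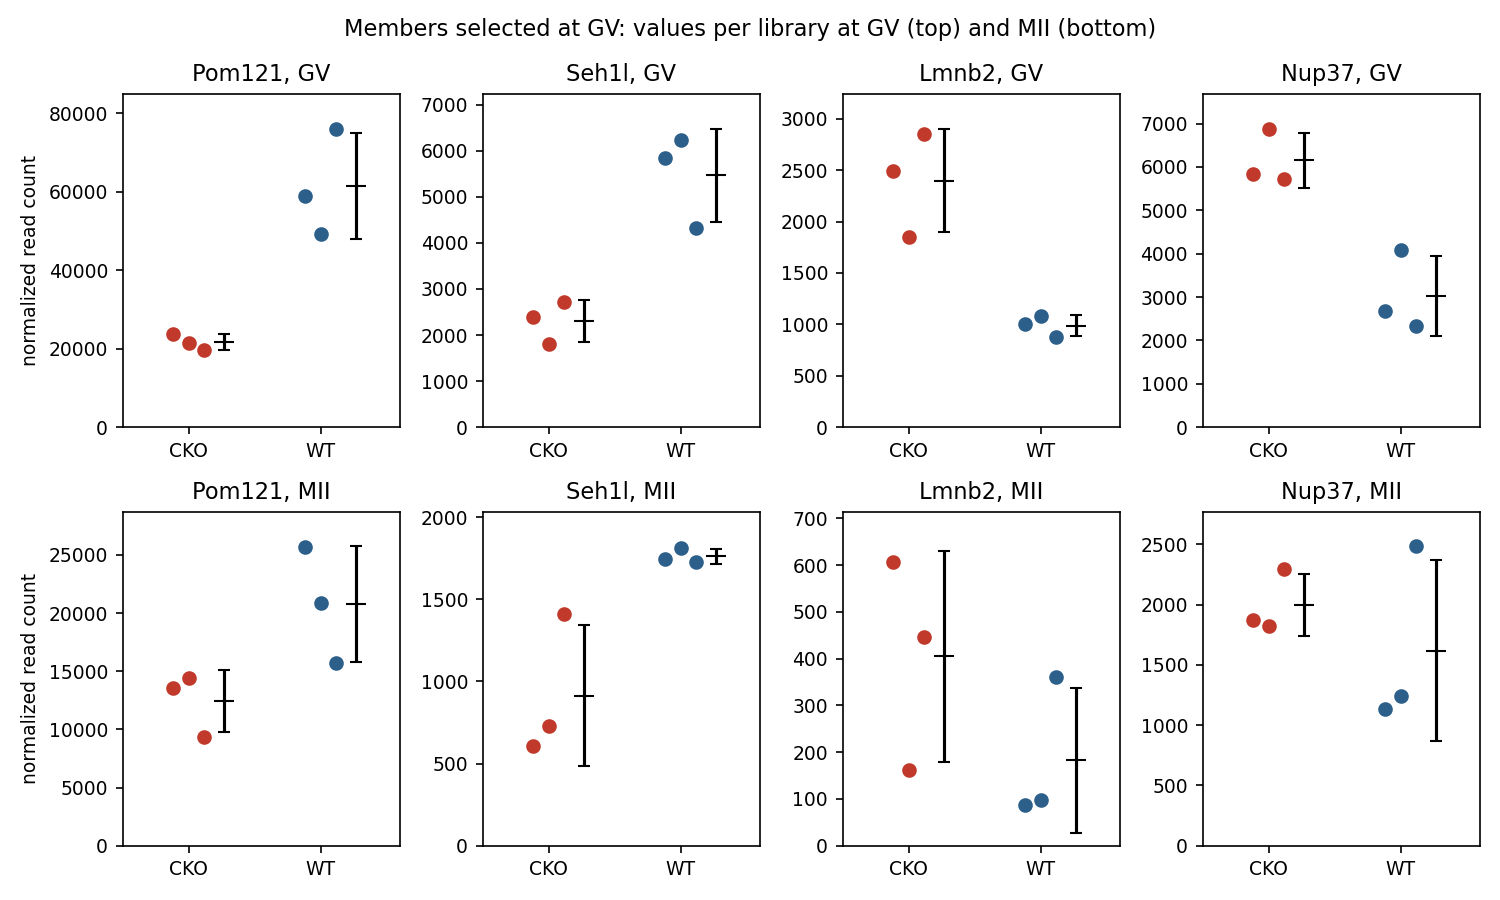
Normalized read counts (linear axes from 0) of Pom121, Seh1l, Lmnb2 and Nup37 at GV (top row) and MII (bottom row), with 1 point per library, CKO left of WT, and the mean with SD (n = 3) beside the points. The genotypes do not overlap in any of the 4 GV panels, while Lmnb2 and Nup37 overlap at MII, where WT replicate 3 lies highest of the WT libraries. Counts were scaled separately in the GV and MII tables.

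At MII, the same comparison was made over all genes with limma, on log2(normalized read count + 1), with Benjamini-Hochberg adjustment across the 20388 genes tested. None of the 36 pore and lamina genes was called at an adjusted p under 0.05, where 1.51% of all tested genes were (0.520% higher and 0.991% lower in CKO). At an unadjusted p under 0.05, 6 of the 36 (16.7%) passed, against 16.0% of all genes. These were Nup155 and Nup133 on the higher side (2 genes, against 6.70% of all) and Nup85, Seh1l, Pom121 and Nup62 on the lower side (4 genes, against 9.28% of all). Limma-voom on recovered reads also called 0 of 36, against 0.839% of all genes (0.446% higher and 0.392% lower). It had 5 of 36 at an unadjusted p under 0.05, against 15.2% of all, with 2 higher (7.88% of all) and 3 lower (7.34% of all). The 3 CKO and 3 WT libraries did not overlap for 7 of the 36 genes (19.4%), against 22.4% of all genes, with 2 higher (10.4% of all) and 5 lower (2445 of the 20388 tested genes, or 12%). In the authors' deposited table, 1 of 35 genes with an adjusted p, Nup155, was under 0.05 with over 2-fold, against 10.5% of all genes, and Nup85 was also under 0.05 at less than 2-fold (2 of 35, against 11.5% of all).

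The median log2 difference (CKO minus WT) was -0.19 over the 36 genes and -0.11 over all tested genes. Without WT replicate 3 the medians were -0.05 over the 36 and -0.15 over all, so their order turned round, and 28 of the 36 genes kept their sign. Its median size without sign was 0.40 over the 36 and 0.95 over all, and 7 of 36 genes (19.4%) differed by over 2-fold, against 47.5% of all tested genes. The all-gene values include many genes with few reads, whose log2 differences spread widely. Leaving out WT replicate 3, 1 of the 36 genes was called (Nup160, lower in CKO), against 4.37% of all genes (1.30% higher and 3.06% lower). At an unadjusted p under 0.05, 13 of the 36 then passed (36.1%), against 21.2% of all, with 6 higher (8.88% of all) and 7 lower (12.3% of all). With weights estimated per library, which gave WT replicate 3 a weight of 0.198 and WT replicate 2 a weight of 4.37, limma called 9 of 36 (25%), against 15.6% of all genes (6.36% higher and 9.28% lower). Those 9 were Nup155, Nup133 and Lmnb2, higher in CKO, and Nup85, Seh1l, Pom121, Nup88, Nup160 and Nup210l, lower in CKO.

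**Figure D2:**
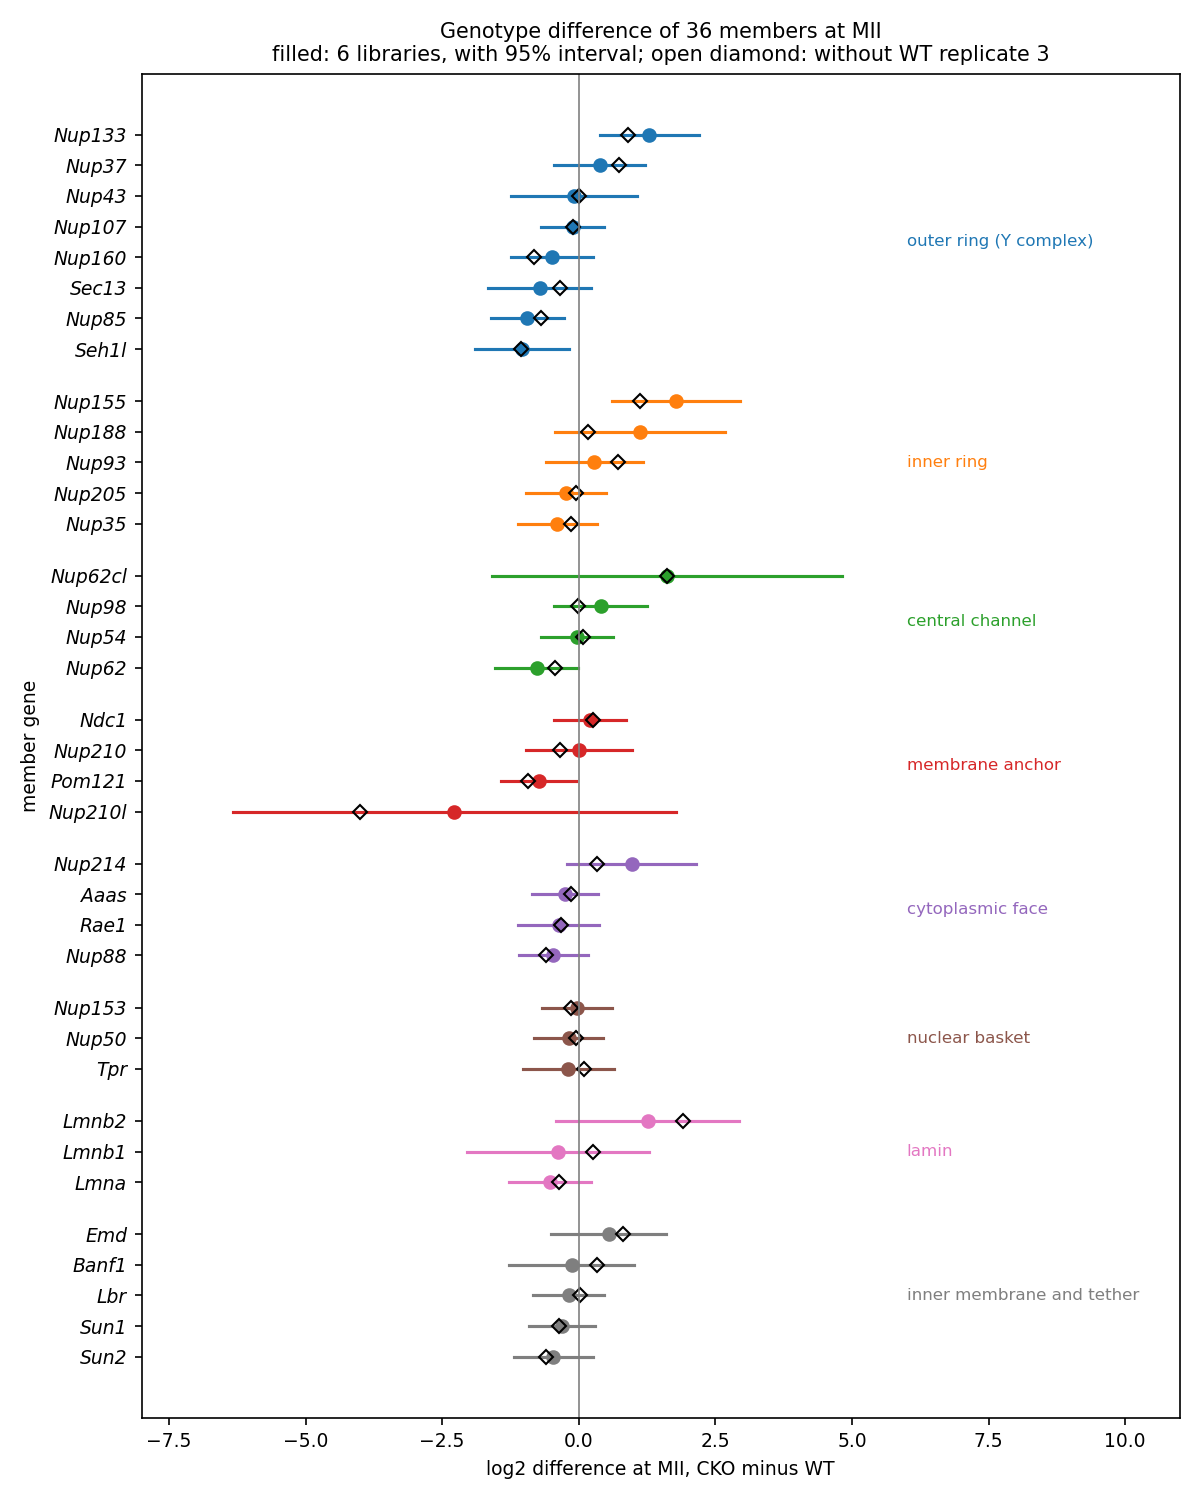
Log2 difference at MII (CKO minus WT) of the 36 genes, grouped by their place in the pore or lamina. Filled points with bars are limma estimates from 6 libraries with 95% intervals, and open diamonds are estimates without WT replicate 3. The highest interval clear of 0 is that of Nup155 (0.62 to 2.96), and Nup210l and Nup62cl, near 0 reads, have the widest intervals.

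In the outer ring, 8 genes were measured and their differences ranged from -1.04 to 1.29. Nup133, which tethers the Y complex to the membrane, had 6280, 5752 and 3605 normalized reads in CKO replicates 2, 3 and 4, against 3074, 2421 and 1195 in WT replicates 1, 2 and 3. The genotypes did not overlap, and the log2 difference was 1.29 (SE 0.40, 95% interval 0.39 to 2.19, adjusted p = 0.15). WT replicate 3 was the lowest library, and without it the difference was 0.89. Nup85, a Y complex scaffold protein, had 8504, 6568 and 8037 normalized reads in CKO and 11865, 12872 and 20698 in WT. Its libraries did not overlap either, and the log2 difference was -0.94 (SE 0.30, 95% interval -1.61 to -0.26, adjusted p = 0.161), or -0.69 without WT replicate 3, the highest library. Sec13, shared by the pore and the COPII coat of transport vesicles, had 7816, 3365 and 7183 normalized reads in CKO against 7353, 7232 and 15573 in WT. The groups overlapped, with a log2 difference of -0.71 (95% interval -1.65 to 0.23), which was -0.35 without WT replicate 3 and -0.33 without CKO replicate 3.

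Seh1l at MII had 609, 727 and 1408 normalized reads in CKO and 1745, 1814 and 1725 in WT. CKO replicate 4 lay between the other CKO libraries and the WT libraries, which were close together, and the log2 difference was -1.04 (SE 0.39, 95% interval -1.91 to -0.18, adjusted p = 0.223). Nup37, higher in CKO at GV, had 1872, 1820 and 2292 normalized reads in CKO at MII, against 1134, 1238 and 2483 in WT. WT replicate 3 exceeded every CKO library, and the log2 difference was 0.39 (95% interval -0.45 to 1.22) with it and 0.74 (adjusted p = 0.0852) without it. Nup160, which has the longest coding part of the 8 Y complex genes, had 3230, 3760 and 3190 normalized reads in CKO and 5905, 6047 and 3038 in WT. WT replicate 3 was here the lowest of all libraries, and the log2 difference was -0.50 with it and -0.82 (adjusted p = 0.0480) without it. Nup107 was the steadiest of the WT levels, at 17316 ± 2196 in CKO and 18594 ± 238 in WT (SD, n = 3 each), with a 95% interval of -0.68 to 0.46. Nup43 had 283 ± 108 in CKO and 291 ± 49.7 in WT (SD, n = 3 each).

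Among the 5 inner ring genes, which form the scaffold around the channel, Nup155 had the largest log2 difference of the 36 in the higher direction over all 6 libraries at equal weight. Without WT replicate 3, Lmnb2 and Nup62cl exceeded it, and with weights per library Lmnb2 and Nup62cl did too. It had 10714, 11348 and 6483 normalized reads in CKO and 4779, 3742 and 1068 in WT. The genotypes did not overlap, the CKO mean was 298% of the WT mean, and the log2 difference was 1.79 (SE 0.52, 95% interval 0.62 to 2.96, adjusted p = 0.125). Without WT replicate 3, the lowest library, the difference was 1.13 (adjusted p = 0.139). The authors' deposited table gave Nup155 a log2 fold change of 1.57 (SE 0.57, adjusted p = 0.0484). Nup188 had 36325, 30241 and 17153 normalized reads in CKO, against 29238, 18905 and 3306 in WT. The groups overlapped, and the log2 difference of 1.12 (95% interval -0.43 to 2.68) became 0.18 without WT replicate 3. Nup93, which links the ring to the channel, had 8380 ± 2153 in CKO and 7397 ± 4214 in WT (SD, n = 3 each), with a log2 difference of 0.29, or 0.72 without WT replicate 3. Nup205 and Nup35 had log2 differences of -0.23 and -0.39, with overlapping groups, or -0.04 and -0.14 without WT replicate 3.

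Of the central channel genes, Nup62 encodes a phenylalanine-glycine repeat protein of the channel. It had 9521, 8449 and 10419 normalized reads in CKO and 10853, 15080 and 25497 in WT. The groups did not overlap, by a small margin, and the log2 difference was -0.77 (SE 0.34, 95% interval -1.53 to -0.01, adjusted p = 0.306), or -0.44 without WT replicate 3. Nup54, its partner in the channel, had 4074 ± 913 in CKO and 4126 ± 621 in WT (SD, n = 3 each), with a 95% interval of -0.68 to 0.62. Nup98, whose transcript encodes both the repeat protein NUP98 and the Y complex protein NUP96, had 35321 ± 6480 in CKO and 28433 ± 11782 in WT (SD, n = 3 each). Nup62cl, an X-linked relative of Nup62, had no read in 5 of the 6 libraries and 27.5 normalized reads in CKO replicate 4.

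Among the membrane anchors, Pom121 had 13527, 14399 and 9366 normalized reads in CKO at MII, against 25673, 20908 and 15695 in WT. As at GV, every CKO library was under every WT library, and the log2 difference was -0.74 (SE 0.31, 95% interval -1.42 to -0.05, adjusted p = 0.279), or -0.92 (adjusted p = 0.134) without WT replicate 3. Ndc1, another transmembrane anchor, had 4020 ± 1018 in CKO and 3421 ± 263 in WT (SD, n = 3 each). Nup210, the glycoprotein anchor of the pore lumen, had 600 ± 76.7 in CKO and 627 ± 227 in WT (SD, n = 3 each), and its relative Nup210l averaged 3.67 in CKO and 26.8 in WT, with no read in 3 of the 6 libraries.

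On the cytoplasmic face, Nup214, the docking site for the mRNA export helicase, had 141687, 159678 and 91566 normalized reads in CKO, against 117700, 87652 and 26840 in WT. The groups overlapped, and the log2 difference of 0.97 (95% interval -0.21 to 2.15) was 0.33 without WT replicate 3. Nup88, its binding partner, had 16212, 15136 and 22182 normalized reads in CKO and 25713, 27658 and 20027 in WT. Only CKO replicate 4 reached above the lowest WT library, and the log2 difference was -0.46 (95% interval -1.10 to 0.18, adjusted p = 0.458). Rae1, an mRNA export factor, and Aaas, which encodes aladin, had log2 differences of -0.37 and -0.25 with overlapping groups, or -0.32 and -0.15 without WT replicate 3. The 3 nuclear basket genes Nup153, Nup50 and Tpr had log2 differences of -0.03, -0.19 and -0.19, and their groups overlapped. Without WT replicate 3 the values were -0.15 and -0.05 for Nup153 and Nup50, and Tpr turned to 0.10.

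The 3 lamin genes differed widely in level. Per kilobase of exon, Lmna had 1321, 1500 and 775 normalized reads in CKO libraries and 1276, 1708 and 2093 in WT libraries at MII. Lmnb1 lay between 40.2 and 134 per kilobase in CKO and between 44.6 and 205 in WT, and Lmnb2 between 37.8 and 142 in CKO and between 20.4 and 84.3 in WT. The A-type lamin gene was thus above both B-type lamin genes in each of the 6 libraries on this scale. In normalized reads not scaled by length, Lmna had 6998 ± 2204 in CKO and 9882 ± 2385 in WT (SD, n = 3 each), with a log2 difference of -0.52 (95% interval -1.28 to 0.23, adjusted p = 0.481). Lmnb2 had 607, 162 and 446 in CKO, against 87.2, 98.7 and 362 in WT. CKO replicate 3 lay under WT replicate 3, so the groups overlapped, and the log2 difference was 1.27 (SE 0.75, 95% interval -0.41 to 2.94, adjusted p = 0.436), or 1.92 (adjusted p = 0.207) without WT replicate 3. Lmnb1 had 150, 119 and 398 in CKO and 193, 132 and 608 in WT. Its libraries overlapped, and its log2 difference of -0.37 (95% interval -2.04 to 1.29) turned to 0.27 without WT replicate 3. The fewest reads in a library were 47 for Lmnb1 and 64 for Lmnb2, so both rest on shallow counts.

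Among the 5 genes of the inner nuclear membrane and its chromatin tether, Sun1 and Sun2 encode the proteins that couple the nucleus to the cytoskeleton. Sun1 had 3483, 2869 and 3281 normalized reads in CKO and 4113, 4153 and 3655 in WT, without overlap, and a log2 difference of -0.31 (95% interval -0.91 to 0.29). Sun2 had a log2 difference of -0.46 with overlapping groups. The lamin B receptor gene Lbr had 12160 ± 1134 in CKO and 14115 ± 3904 in WT (SD, n = 3 each). The emerin gene Emd had 348, 461 and 550 in CKO and 258, 249 and 435 in WT, with overlap. Banf1, which encodes a DNA-bridging protein that helps gather chromatin into 1 nucleus, spanned 815 to 2347 in CKO and 1010 to 3075 in WT. Exons of Banf1 overlap those of Eif1ad on the opposite strand over 428 bases, and its reads are uncertain there. In the annotation, exons of Lbr, Nup133, Nup188, Nup214, Nup88, Seh1l, Sun1, Sun2 and Tpr also overlap a gene on the opposite strand, and those of Emd, Nup35 and Nup62 a gene on the same strand, so their reads carry the same uncertainty over the overlap.

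Levels per length are compared between genes only at MII, where all 36 were measured. In WT the highest mean per kilobase of exon was that of Nup214 (8013 ± 4792), followed by Nup62 (6007 ± 2641), Nup107 (4830 ± 61.8), Nup85 (4474 ± 1429) and Pom121 (3720 ± 894; SD, n = 3 each). In CKO, Nup214 had 13560 ± 3654 per kilobase and Nup107 had 4498 ± 570 (SD, n = 3 each). Below these genes, the WT levels fell off gradually. Of the 35 pairs of neighbours in the WT order, 33 had overlapping libraries. The 2 that did not were Nup50 above Ndc1 and Lmnb2 above Nup210l. For those 33 pairs the order is within the spread between libraries, while the span from Nup214 to Lmnb2 (42.6 ± 36.2 per kilobase in WT, SD, n = 3) is not.

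**Figure D3:**
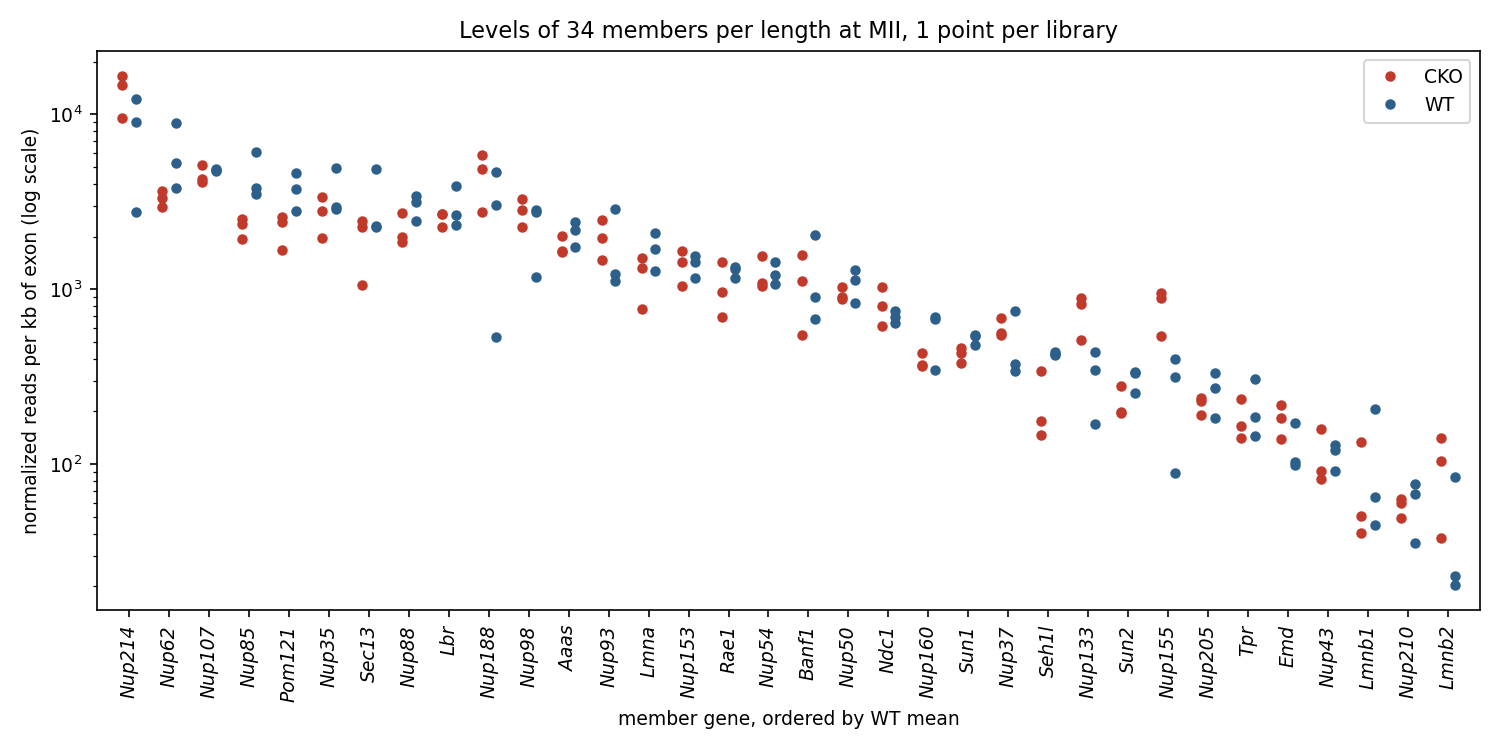
Normalized reads per kilobase of exon at MII (logarithmic axis) for 34 of the 36 genes, 1 point per library, CKO left of WT, ordered by the WT mean. Nup62cl and Nup210l are left out because most of their libraries hold few or no reads. The WT points of Nup188, Nup214 and Nup155 reach far below the rest through 1 library, WT replicate 3.

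Values in WT replicate 3 moved with coding length. Across the 35 genes averaging 10 normalized reads or more, the log2 ratio of WT replicate 3 to the other WT libraries had a Spearman correlation with coding length of -0.62, against -0.21 over 12464 genes. Of the 12 genes with a coding part over 3000 bases, a bound set after the values were seen, 10 were lower in WT replicate 3 than in the other WT libraries. Of the 23 with a shorter coding part, 19 were higher. The log2 ratio was -5.20 for Nup210l, which is near 0 reads, -2.83 for Nup188, -1.98 for Nup155, -1.92 for Nup214, -1.25 for Nup98 and -1.19 for Nup133, and it was 1.95 for Lmnb2, 1.92 for Lmnb1 and 1.40 for Banf1. Tpr (0.89), which has the longest coding part of the 36, and Nup205 (0.57) went the other way. The correlation of coding length with the CKO minus WT log2 difference was 0.18 with all 6 libraries and -0.08 without WT replicate 3. These correlations are across genes of the same libraries, which are not independent replicates. WT replicate 3 was the highest or lowest of the 6 libraries in 21 of these 35 genes (60%), against 57.1% of 15336 genes of that level.

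**Figure D4:**
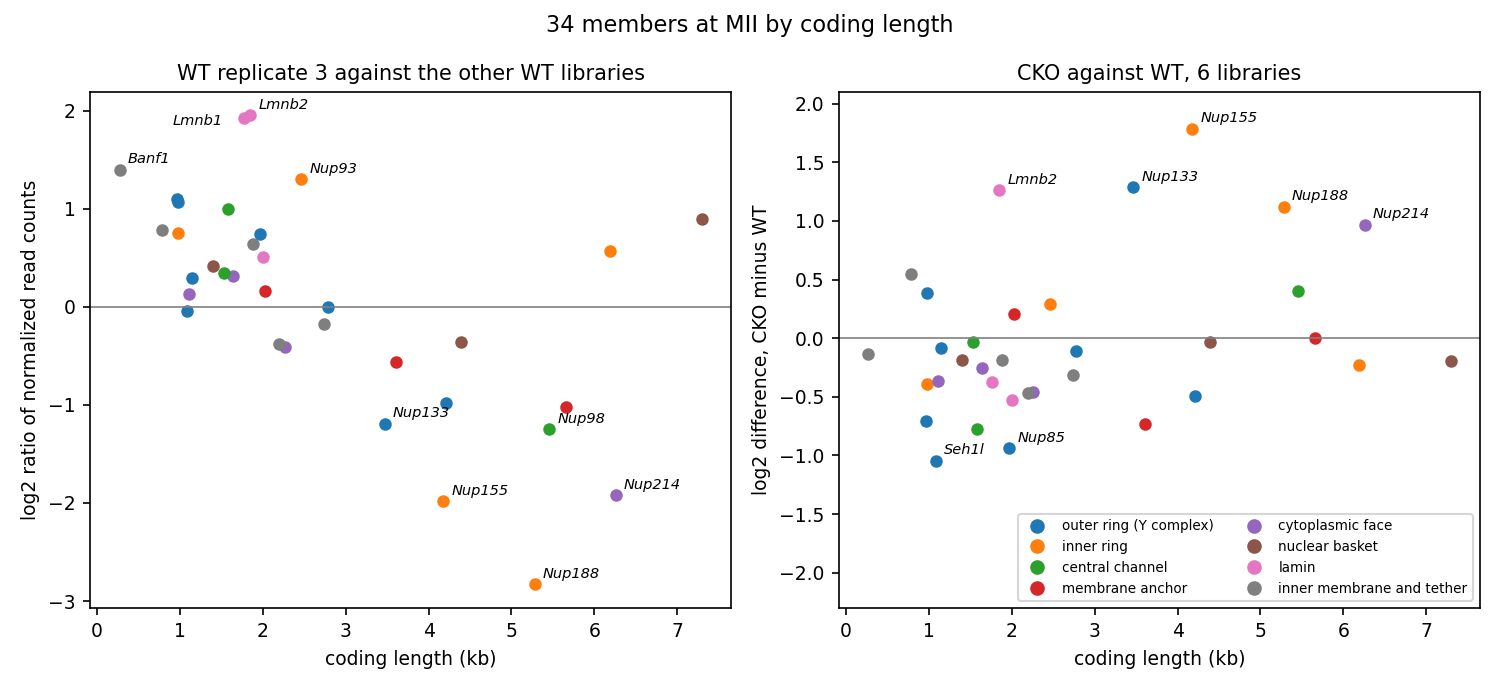
Coding length (kb) of 34 genes against the log2 ratio of WT replicate 3 to the other WT libraries (left) and against the log2 difference CKO minus WT from all 6 libraries (right), coloured by place in the pore or lamina. On the left the long genes Nup188, Nup155 and Nup214 lie lowest and Lmnb2, Lmnb1 and Banf1 highest. On the right the 5 highest points are Nup155, Nup133, the shorter Lmnb2, Nup188 and Nup214.

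The 2 stages rest on separate libraries, and their counts were scaled separately. For Pom121 the authors' deposited table gave log2 fold changes of -1.50 at GV and -0.74 at MII. The corresponding values in the authors' deposited tables were -1.24 and -0.95 for Seh1l, 1.28 and 1.15 for Lmnb2, and 1.02 and 0.30 for Nup37. The sign was thus the same at both stages for these 4 genes, and the MII adjusted p-values in that table were 0.141, 0.130, 0.381 and 0.748 for Pom121, Seh1l, Lmnb2 and Nup37. Whether the difference changed between the stages was not tested.

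A list of 95 other genes of nuclear transport and the nuclear envelope was set beside the pore and lamina genes, of which 87 were measured at MII. At GV, 10 of these 87 (11.5%) met an adjusted p under 0.05 with over 2-fold in the authors' deposited table, against 12.9% of all genes, with 2 higher and 8 lower in CKO. Kpna3, an importin alpha, had 28462 ± 1323 normalized reads in CKO and 68268 ± 11346 in WT, and Xpo5, the exporter of microRNA precursors, had 3479 ± 501 in CKO and 10450 ± 2192 in WT (SD, n = 3 each). The small GTPase gene Ran, which sets the direction of transport, was the opposite, at 5389 ± 92.2 in CKO and 2479 ± 276 in WT (SD, n = 3 each). GV log2 fold changes in the authors' deposited table were -1.26 for Kpna3, -1.59 for Xpo5, 1.12 for Ran, 3.16 for Rangrf, a Ran-binding factor, -1.12 for Thoc2, a subunit of the mRNA export complex TREX, -3.85 for Nxt2, a partner of mRNA export receptors, -1.37 for the phosphatidate phosphatase gene Lpin1 and -1.11 for the importin gene Ipo11.

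At MII, limma called 2 of the 87 genes (both lower in CKO), against 1.51% of all tested genes. Xpo5 had 2414, 1947 and 1439 normalized reads in CKO, against 6352, 6006 and 5826 in WT. The libraries were far apart, and the log2 difference was -1.68 (SE 0.30, adjusted p = 0.0290). Nxt2 had no read in any CKO library and 58.9, 103 and 85.6 normalized reads in WT (adjusted p = 0.0381). Against a floor of 3 reads in each CKO library it was at least 15.6-fold lower in CKO. Leaving out any 1 of the other 5 libraries than WT replicate 3, limma called 0 of 20388 genes, so both calls were lost. Without WT replicate 3 both held (adjusted p = 0.0460 for Xpo5 and 0.0346 for Nxt2). Of these 2 genes, Xpo5 alone was called with a pseudocount of 0.1 and Nxt2 alone with limma-voom. The tRNA exporter gene Xpot, the 1 list gene called higher both by limma-voom and by limma with WT replicate 3 left out (adjusted p = 0.0400 each time), had 33.0, 58.2 and 38.6 normalized reads in CKO and no read in any WT library. It was not called with all 6 libraries (adjusted p = 0.0617), and at most 28 reads stood behind a value. Ran and Kpna3 kept their GV directions at MII with log2 differences of 1.13 (adjusted p = 0.238) and -1.16 (adjusted p = 0.297), which did not pass the test, while without WT replicate 3 Kpna3 passed it at -1.84 (adjusted p = 0.0346). The gene of the lamin-processing protease Zmpste24 passed it then too, at -1.47 (adjusted p = 0.0346), against -1.08 (adjusted p = 0.223) with all 6. Ranbp2, the large SUMO ligase of the pore's cytoplasmic filaments, had 5064 ± 1981 in CKO and 1364 ± 769 in WT (SD, n = 3 each), with a log2 difference of 2.01 (adjusted p = 0.0777). In the authors' deposited table its log2 fold change was 1.89 (adjusted p = 0.00781). That table also had Xpo5, Nxt2, Thoc2, Plpp6, Zmpste24 and Ctdnep1 lower and Xpot higher at an adjusted p under 0.05 with over 2-fold. This is the measure used for the list at GV. Of all genes with an adjusted p in the MII table, 10.5% passed it. Ahctf1, which encodes the chromatin-binding pore protein ELYS, had 14505 ± 2373 in CKO and 16325 ± 2086 in WT, and Nupl2 had 223 ± 52.6 in CKO and 174 ± 130 in WT (SD, n = 3 each), with log2 differences of -0.18 and 0.91 (adjusted p = 0.737 and 0.630), and Nupl1 averaged 0 in CKO and 2.05 in WT. Without WT replicate 3 the value for Nupl2 turned to -0.18. The 4 pore genes Ranbp2, Ahctf1, Nupl2 and Nupl1, which the choice by symbol missed, were added after their values were seen.

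Summed over the 36 genes, the MII libraries held 383585, 393264 and 316940 normalized reads in CKO and 374347, 341765 and 279817 in WT. The CKO libraries and WT replicates 1 and 2 overlapped, and WT replicate 3 lay below them all. Nup214 alone gave 159678 of the sum in CKO replicate 3 and 26840 in WT replicate 3, so the sum moves with that gene.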

How the data were processed

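Both tables were used as the authors deposited them. Per the file headers each gives library values on a log10 scale, their mean (a signal), and a log2 fold change, its error, a score and p-values. The deposited library values were read as log10(normalized count + 1), since 10 to the power of the value, minus 1, averaged to the deposited mean. All values (100%) lay within 0.05 of a whole multiple of 1 unit per library, so whole reads were recovered. No source used here names the aligner, build, annotation, counting tool or strand.

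For MII, log2(normalized count + 1) of the 6 libraries was modelled by genotype in limma 3.58.1 (R 4.3.3, trended variance) for 20388 genes with a mean of at least 1. Fold changes on that scale understate the change of low genes. The procedure was tested on simulated data. No test across genes was made at GV, where the table held selected genes, and values there are the authors'. Symbols were matched to GENCODE M21 for lengths, overlaps and sequences.

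Genes with values given in full were those in the GV table, any called at MII, those with the smallest p at MII up to 12, and the lamins, and from the transport list those called by limma at MII or in the GV table, at most 8 per stage by smallest p. Nup160, Nup107, Sun1, Ranbp2, Xpot, Zmpste24 and others were described beyond this rule. The genes and lists were chosen with earlier results of these data known.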

Additional observations from a re-analysis of the deposited data

How the results depend on the processing

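None of the 36 genes was called at MII with a pseudocount of 0.1, with no filter on low values or with a mean of at least 10. Scaling to library totals and limma-voom also called none of them. The replicate block called 0 genes in all, as only numbers 2 and 3 were shared by the genotypes. It therefore could not show whether any of the 36 differed. Array weights gave 3 higher and 6 lower, and leaving out 1 library gave 0 higher and 0 to 1 lower, the 1 being Nup160 without WT replicate 3. Over all genes, limma called 106 higher and 202 lower, array weights 1297 and 1893, limma-voom 91 and 80, and the replicate block 0 and 0. With a library left out, the range was 0 to 266 higher and 0 to 624 lower, with calls only without WT replicate 3. For the 87 genes of the transport list, array weights gave 6 higher and 9 lower, against 6.36% and 9.28% of all genes. Limma-voom gave 1 higher and 1 lower, against 0.446% and 0.392% of all. A pseudocount of 0.1 and no filter gave 1 lower each, where 150 and 163 of all genes were lower. The replicate block gave 0 lower. With a library left out, the list had 0 to 1 higher and 0 to 4 lower, with calls only without WT replicate 3. In that setting 1.30% of all genes were called higher and 3.06% lower. Of the 36 genes, the authors' deposited table called 1 at MII with over 2-fold and 2 at any fold, against 10.5% and 11.5% of all genes. Lmnb1 changed sign to 0.29 with array weights and to 0.27 without WT replicate 3 (range with a library left out -0.90 to 0.27), and the cause was not tested. Nup54, Nup98, Banf1, Lbr, Nup210, Tpr and Nup43 also changed sign without WT replicate 3, to 0.08, -0.01, 0.33, 0.03, -0.33, 0.10 and 0.01. Pom121, Seh1l, Lmnb2, Nup155, Nup133, Nup85, Nup88, Nup160 and Nup210l passed the threshold with array weights. The median log2 difference of all genes lay between -0.19 with no filter and 0.02 with limma-voom, against -0.11. The replicate numbers 2 and 3, shared by both genotypes at MII, had correlations of deviations of 0.030 and -0.13. These are deviations from means of 3 libraries, and number 3 includes WT replicate 3. They cannot show whether libraries with the same number were handled together.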
